A study of Homo sapiens with 6 samples.

Results

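The genes described here are 10 genes of the oxidant defence and carbonyl metabolism of human cells, 4 aldo-keto reductases (AKR1C1, AKR1C2, AKR1C3 and AKR1B1) and 6 textbook targets of the transcription factor NRF2 (NQO1, HMOX1, GCLC, GCLM, TXNRD1 and SRXN1). They were taken by symbol from 26870 genes on primary chromosomes, and the transcript entry with the largest summed mean stood for each gene. RNA was sequenced in U2OS 2-6-3 cells, derived from a human bone tumour and carrying many tet operator copies in front of a reporter gene. There were 3 groups of 2 libraries. Sample cells were transiently transfected with plasmids for CIBN-TetR and PHR-YFP-VP16, a pair of plant-derived fusions through which light recruits the VP16 activator to the operator array, and for mCherry-MCP, a fluorescent RNA-binding protein. Mock cells were transiently transfected with plasmids for TetR-RFP and YFP, and untransfected cells received neither plasmid nor transfection reagent. All groups, untransfected cells included, were grown in doxycycline-free serum and lit with white light through the night, so light itself was not compared. Plasmids and transfection reagent always came together, so in both comparisons with untransfected cells their parts cannot be told apart. A transiently transfected dish holds cells with and without plasmid, and the share that took it up is not given in the sources used here.

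NRF2 (gene NFE2L2) is held in the cytoplasm and marked for breakdown by KEAP1. Oxidants and electrophiles block KEAP1, and NRF2 then enters the nucleus, pairs with a small MAF protein (MAFF, MAFG or MAFK) and binds antioxidant response elements, while BACH1 and BACH2 compete for the same elements as repressors. Its targets make glutathione, reduce thioredoxin and quinones, break down heme and remove reactive carbonyls. The AKR1C enzymes are among the NRF2 targets best known from human tumour lines, where they also interconvert steroid hormones.

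Sequences around the gene starts were taken from RefSeq (GRCh38.p14), in windows of 250 bases upstream and 50 bases downstream of each annotated start. Windows were present for 9 of the 10 genes, and HMOX1 had none. The first 3 stretches are shown because they hold the core letters of the antioxidant response element, TGACNNNGC, or GCNNNGTCA where it lies on the opposite strand, and the capitals mark those letters.
GCLM, chr1:93909446-93909475, minus strand: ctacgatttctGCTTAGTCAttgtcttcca
TXNRD1, chr12:104286919-104286948, plus strand: agtggatttctGCTTTGTCAttctgactct
TXNRD1, chr12:104215669-104215698, plus strand: tacacgggctaTGACTTCGCtgttgtcacc
The first base of the match lay at -34 in GCLM, at -102 in the first TXNRD1 stretch and at -99 in the second, where -1 is the base just before the RefSeq start. The 2 TXNRD1 stretches belong to alternative promoters, and the window of the second also held the letters at -8. Searched on both strands, the core letters stood in 3 of the 12 windows of these genes, from 2 of the 9 genes with a window, and in 13.3% of all 35116 RefSeq promoter windows. The AP-1 letters TGANTCA, searched the same way, were in none of the 12 windows of these genes and in 7.71% of all windows. The windows cover only the stretch next to each RefSeq start, and the deposited transcript entries can start elsewhere. By coordinates, the GCLM stretch and the first TXNRD1 stretch lay inside the entries used for these genes. The second TXNRD1 stretch lay before the entry.

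The next 3 stretches compare windows next to the RefSeq starts of the AKR1C genes. These are 3 of the members with lower mean counts in both transfected groups than in untransfected cells. Capitals mark the bases of AKR1C3 that differ from AKR1C1.
AKR1C1, chr10:4963333-4963362, plus strand: atgccattggttaaccagcagacagtgtgc
AKR1C2, chr10:5003914-5003943, minus strand: atgccattggttaaccagcagacagtgtgc
AKR1C3, chr10:5094323-5094352, plus strand: atgccattggttaaccaTcagTcagtTtgc
AKR1C1 and AKR1C2 were the same in these 30 bases, and AKR1C3 differed at 3 of them. Over the aligned part of the upstream windows, AKR1C1 matched AKR1C2 at 245 of 246 bases (99.6%) and AKR1C3 at 185 of 234 bases (79.1%). By coordinates, the AKR1C1 and AKR1C2 stretches lay inside the transcript entries used for these genes, which start farther upstream than the RefSeq starts. The AKR1C3 stretch lay before the entry used for it. The transcripts were not compared as a whole.

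Reads summed over transcript entries came to 50105854 and 9579278 for sample cells, 54177551 and 44594507 for mock cells and 53596406 and 51146190 for untransfected cells. The deeper library of each group is called a and the shallower b, since which is which replicate number is not known. The labels do not say that the libraries of a group came from separate cultures, so the p-values reflect the spread of these libraries alone, and that spread may be technical. Over 11490 genes the SD of the log2 difference between libraries a and b was 0.370 in sample cells, 0.181 in mock cells and 0.151 in untransfected cells, so comparisons with sample cells were the least precise. Of the fixed markers of a mesenchymal line, 7 of 7 had reads. So had 4 of 4 epithelial, 4 of 5 blood and 2 of 3 hepatocyte markers. The summed normalized counts of the mesenchymal markers were 88122 and 107748 in sample cells, 92621 and 95674 in mock cells and 87566 and 91229 in untransfected cells. Single mesenchymal markers moved apart within that sum: RUNX2 had 93.1 and 132 in sample cells, 66.7 and 64.0 in mock cells and 379 and 414 in untransfected cells, SPARC was lower in both transfected groups, and FN1 had 18308 and 18710.1 in sample cells, 22369 and 19395 in mock cells and 7572 and 7637 in untransfected cells. COL1A1 had 6105 and 14774 in sample cells, 5574 and 5448 in mock cells and 7824 and 8117 in untransfected cells. COL1A2 reached at most 27.9 in any library. The 4 epithelial markers summed to 232 and 185 in sample cells, 239 and 195 in mock cells and 906 and 994 in untransfected cells, a lower sum in both transfected groups that came from KRT5, KRT14 and EPCAM, while CDH1 had 61.8 and 37.1 in sample cells, 63.1 and 38.0 in mock cells and 48.1 and 43.5 in untransfected cells. The part of these markers in the results below was not tested. Blood markers summed to 117 and 74.1 in sample cells, 24.8 and 15.8 in mock cells and 22.1 and 17.8 in untransfected cells, with HBB carrying most of the sample values and CD3E at 0 in every library. Hepatocyte markers reached at most 16.5 in any library, and TTR was at 0 throughout.

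**Figure D1:**
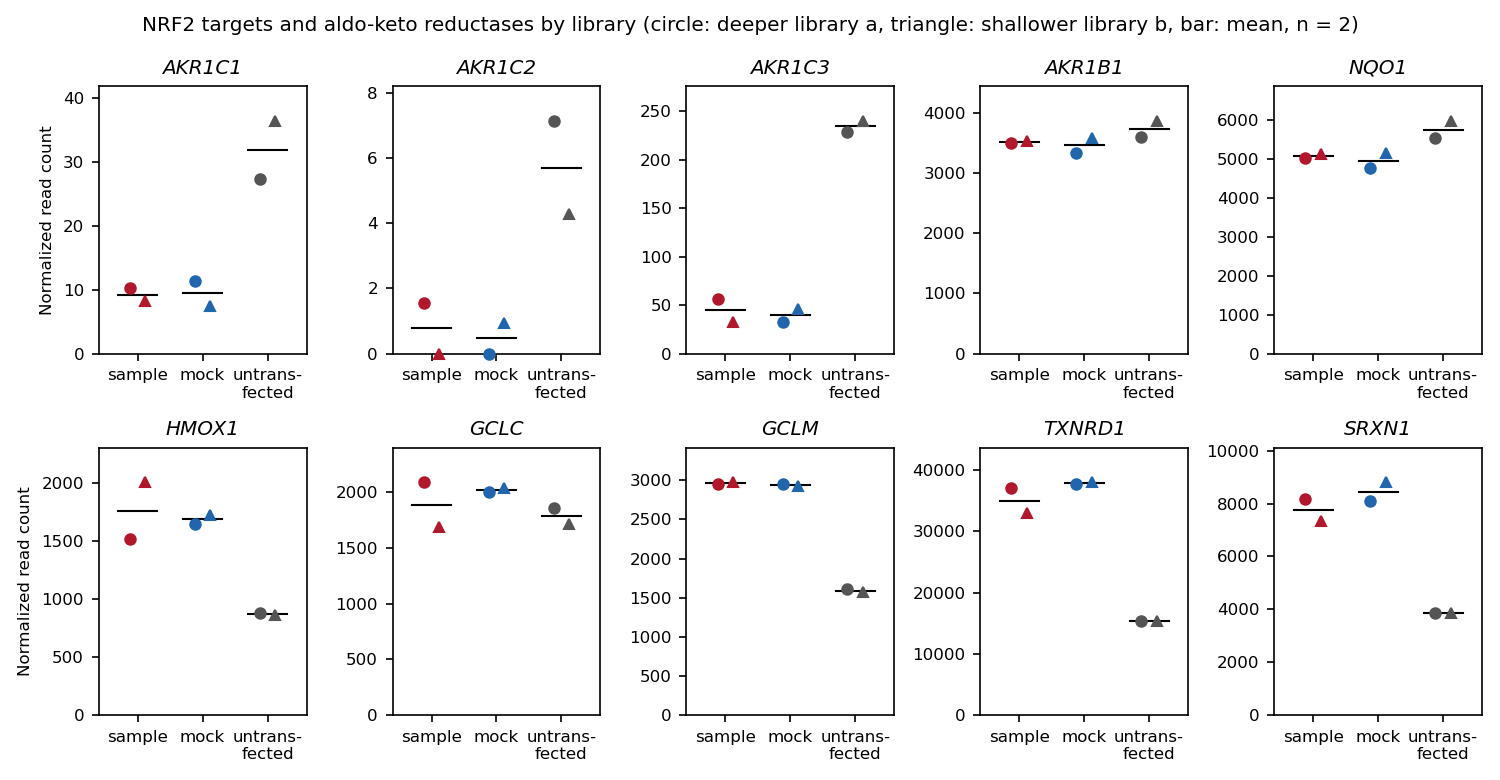
Normalized read count of each of the 10 genes (y axis, linear, from 0, own scale per gene) in sample, mock and untransfected cells, with circles for the deeper library, triangles for the shallower one and bars for the mean of 2 libraries. HMOX1, GCLM, TXNRD1 and SRXN1 lie higher in both transfected groups than in untransfected cells, the AKR1C genes lie lower, and AKR1B1, NQO1 and GCLC differ little.

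The genes did not move as a block. HMOX1, GCLM, TXNRD1 and SRXN1 stood about as high in sample cells as in mock cells and higher in both than in untransfected cells, while AKR1C3 was far lower in both. AKR1B1 and GCLC passed the test in neither comparison with untransfected cells. Calls are genes with a DESeq2 adjusted p under 0.05 by the authors' own fit. For sample against untransfected cells the authors' deposited table called 5 of the 9 tested genes, where 37.3% of all genes tested were called. Of these, 4 were higher and 1 was lower, where 20.2% of all genes were called higher and 17.1% lower. Limma on the recovered counts called 6 of 9, where it called 50.9% of all genes, and scaled by total reads it called 8 of 9, 4 higher and 4 lower, where it called 48.9%. For mock against untransfected cells the authors' deposited table called 7 of the 10 genes, where 50.9% of all genes tested were called. Of these, 4 were higher and 3 lower, where 27.5% of all genes were called higher and 23.3% lower. Limma called 7 of 9 there, where it called 59.2% of all genes, and 8 of 9 scaled by total reads, where it called 57.3%. The shares called are thus set against backgrounds in which a large part of the transcriptome was called. Both comparisons share the 2 untransfected libraries, so their likeness is not independent evidence. In these bulk samples, fewer cells that express a gene and less RNA per cell cannot be told apart.

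TXNRD1, the cytosolic thioredoxin reductase that passes electrons from NADPH to thioredoxin, was the most abundant of the 10 genes (chr12:104215779-104350307, plus strand, hg38). Its normalized read counts were 37053 and 32994 in sample cells, 37745 and 38006 in mock cells and 15286 and 15325 in untransfected cells. All 4 transfected libraries lay above both untransfected ones. The mean was 35023 ± 2870 in sample cells, against 15305 ± 28 in untransfected cells (SD, n = 2 each), a 2.29-fold level. From the authors' deposited table the log2 fold change was 1.18 (SE 0.10, DESeq2 adjusted p = 1.94e-29) for sample against untransfected cells and 1.32 (SE 0.06, adjusted p = 1.13e-104) for mock against untransfected cells. TXNRD1 also stood above SRXN1, the next of the raised genes, per length. The mean normalized count per kilobase of exon was 9085 in sample cells, 9825 in mock cells and 3970 in untransfected cells for TXNRD1, and 2881, 3129 and 1428 for SRXN1 in the same groups.

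SRXN1, sulfiredoxin, returns overoxidized peroxiredoxins to their active form (chr20:646615-653370, minus strand). It had 8189 and 7358 normalized reads in sample cells, 8081 and 8802 in mock cells and 3853 and 3855 in untransfected cells. The transfected libraries all stood well above the untransfected pair, whose own 2 values were nearly equal. The mean was 7774 ± 588 in sample cells and 8441 ± 510 in mock cells, against 3854 ± 1.47 in untransfected cells (SD, n = 2 each). For SRXN1 the authors' deposited table put the log2 fold change at 1.00 (SE 0.11, DESeq2 adjusted p = 2.91e-19) for sample against untransfected cells and 1.14 (SE 0.07, adjusted p = 9.23e-54) for mock against untransfected cells. In the annotation, 2292 of the 2698 exon bases of SRXN1 (85.0%) are shared with AL121758.1 on the same strand, so reads of these 2 genes cannot be told apart over that stretch.

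HMOX1, heme oxygenase 1, cleaves heme into biliverdin, iron and carbon monoxide (chr22:35381067-35394214, plus strand). Its normalized read counts were 1518.5 and 2005 in sample cells, 1650.0 and 1725 in mock cells and 875 and 862 in untransfected cells. The shallow sample library b held the highest value and sample library a the lowest of the transfected libraries, yet each was above both untransfected ones. The mean was 1762 ± 344 in sample cells and 1687 ± 53.0 in mock cells, against 868 ± 9.57 in untransfected cells (SD, n = 2 each). For HMOX1 the authors' deposited table put the log2 fold change at 0.98 (SE 0.16, DESeq2 adjusted p = 1.30e-08) for sample against untransfected cells and 0.97 (SE 0.09, adjusted p = 1.73e-23) for mock against untransfected cells. With limma, HMOX1 stayed called over all 11 settings in each of these comparisons.

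GCLM and GCLC are the modifier and the catalytic subunit of glutamate-cysteine ligase, the first enzyme of glutathione synthesis. GCLM (chr1:93885199-93909598, minus strand) had 2950.2 and 2973 normalized reads in sample cells, 2949 and 2924 in mock cells and 1609 and 1568 in untransfected cells. GCLC (chr6:53497341-53545129, minus strand) had 2088 and 1688 in sample cells, 1998 and 2037 in mock cells and 1858 and 1711 in untransfected cells. The 4 transfected libraries were nearly level for GCLM and well apart from the untransfected pair, whereas for GCLC the shallow sample library lay below both untransfected ones. For GCLM the log2 fold change in the authors' deposited table was 0.89 (SE 0.11, DESeq2 adjusted p = 8.95e-14) in sample against untransfected cells and 0.90 (SE 0.08, adjusted p = 6.28e-28) in mock against untransfected cells. For GCLC the authors' deposited table had 0.09 (SE 0.14, DESeq2 adjusted p = 0.675) in sample cells and 0.19 (SE 0.09, adjusted p = 0.0514) in mock cells, neither of them called. GCLC was on the threshold in mock cells: centring on the median of all genes gave an adjusted p of 0.0470, and limma, at 0.127 with all libraries, gave 0.0447 without sample library a and 0.0387 without sample library b. Neither sample library enters the mock difference of GCLC, whose limma log2 fold change stayed at 0.18 without either. In sample against untransfected cells the limma log2 fold change of GCLC was 0.13 with all libraries. Without sample library b it was 0.23. Whether the 2 subunits differed in response was not tested.

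NQO1, a quinone reductase that is among the most used readouts of NRF2, was abundant and slightly lower in both transfected groups (chr16:69709401-69726630, minus strand). It had 5020.2 and 5118 normalized reads in sample cells, 4760.0 and 5152 in mock cells and 5535 and 5978 in untransfected cells. The highest transfected library stayed under the lowest untransfected one, by a small margin. The mean was 5069 ± 69.2 in sample cells and 4956 ± 277 in mock cells, against 5757 ± 313 in untransfected cells (SD, n = 2 each). By the authors' deposited table NQO1 fell by 0.20 on the log2 scale (SE 0.08, DESeq2 adjusted p = 0.0214) in mock against untransfected cells. The log2 fold change in the authors' deposited table was -0.18 (SE 0.10, adjusted p = 0.159) in sample against untransfected cells, which was not called. The call in mock cells rested on single libraries: with limma the adjusted p was 0.169 without mock library a, 0.0553 without untransfected library a and 0.224 without untransfected library b. An antisense gene, AC092115.2, covers 575 of the 2527 exon bases of NQO1 (22.8%), and the strand setting of the counting is not given in the sources used here.

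**Figure D2:**
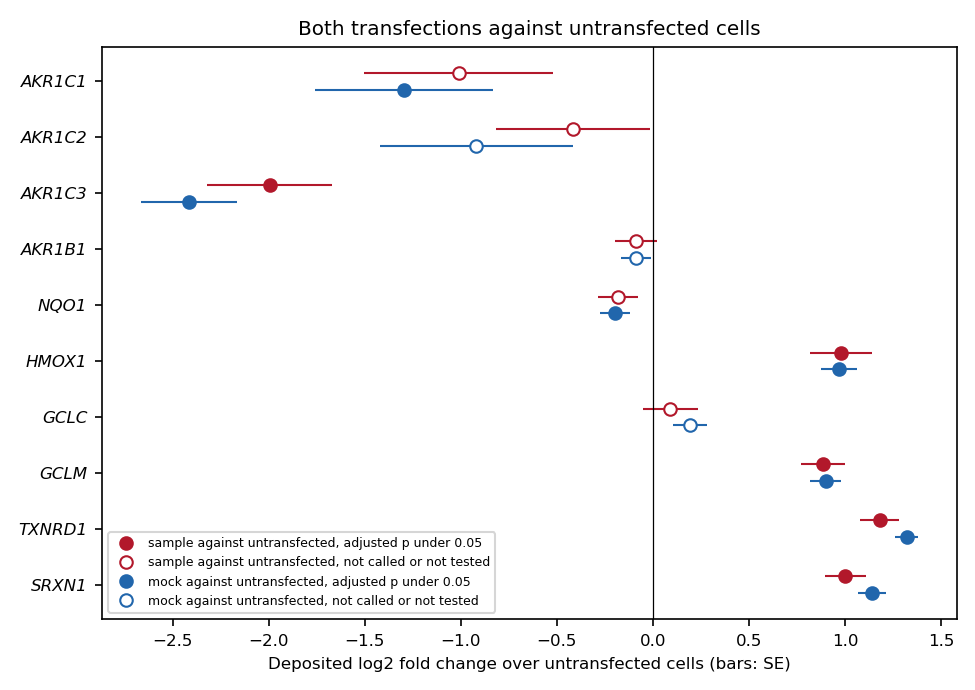
Log2 fold change over untransfected cells from the authors' deposited tables (x axis, bars are SE) for each of the 10 genes (y axis), in sample cells (red) and mock cells (blue), filled where the adjusted p was under 0.05. HMOX1, GCLM, TXNRD1 and SRXN1 sit between 0.89 and 1.32 in both comparisons, and AKR1C3 lies lowest in both.

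AKR1C3, which reduces prostaglandin D2 and activates androgens, had the largest of the shrunken deposited fold changes over untransfected cells among the 10 genes (chr10:5094376-5107686, plus strand). It had 56.3 and 32.9 normalized reads in sample cells, 32.6 and 46.4 in mock cells and 229 and 240.2 in untransfected cells, from 72 and 8, 46 and 50, and 352 and 337 reads in the same order. No transfected library came near the untransfected pair. The mean was 44.6 ± 16.5 in sample cells and 39.5 ± 9.72 in mock cells, against 234 ± 8.11 in untransfected cells (SD, n = 2 each), ratios of 0.190 and 0.168. AKR1C3 fell by 2.00 on the log2 scale (SE 0.33, DESeq2 adjusted p = 1.11e-08) in sample against untransfected cells in the authors' deposited table. In mock against untransfected cells it fell by 2.42 (SE 0.25, DESeq2 adjusted p = 6.04e-21) in the authors' deposited table.

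AKR1C1, which inactivates progesterone, was far scarcer (chr10:4963262-4977966, plus strand). It had 10.2 and 8.24 normalized reads in sample cells, 11.3 and 7.42 in mock cells and 27.3 and 36.3 in untransfected cells, from 13 and 2, 16 and 8, and 42 and 51 reads. The groups did not overlap with untransfected cells, but each transfected value rests on few reads. By the authors' deposited table AKR1C1 fell by 1.30 on the log2 scale (SE 0.46, DESeq2 adjusted p = 0.0114) in mock against untransfected cells. In sample against untransfected cells its log2 fold change in the authors' deposited table was -1.01 (SE 0.49, adjusted p = 0.0950) and was not called, while limma on the recovered counts gave -1.59 (adjusted p = 0.00996), with adjusted p from 0.00807 to 0.0893 over 10 settings. That limma call was lost without sample library a and without untransfected library b.

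AKR1C2, a close copy of AKR1C1 with activity on androgens, was near the floor of detection (chr10:4987775-5004014, minus strand). It had 2 and 0 reads in sample cells, 0 and 1 in mock cells and 11 and 6 in untransfected cells. Pooled over each pair and scaled by size factors, the ratio to untransfected cells was 0.228 in sample cells (exact 95% interval 0.0255 to 0.959) and 0.0695 in mock cells (0.00166 to 0.444), intervals that cover counting error only. The log2 fold change in the authors' deposited table was -0.92 (SE 0.50, DESeq2 adjusted p = 0.114) for mock against untransfected cells and had no adjusted p for the sample comparisons. Without a filter on low counts, limma called AKR1C2 in mock against untransfected cells (log2 -3.14, adjusted p = 0.0118), a fitted value that rests on 1 mock read.

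The 3 genes are known as close paralogs, and how reads that match more than 1 of them were counted is not given in the sources used here, so their separate values are uncertain. AKR1C3 took 82.8% and 80.0% of the reads of the 3 genes in sample cells, 74.2% and 84.7% in mock cells and 86.9% and 85.5% in untransfected cells. The exact 95% intervals of the AKR1C3 shares overlapped between all 6 libraries. They ran from 44.4 to 97.5% in sample library b, with 10 reads in all, to 83.2 to 90.0% in untransfected library a, with 405. The AKR1C1 share was 25.8% (15.5 to 38.5%) in mock library a and 10.4% (7.58 to 13.8%) in untransfected library a. These AKR1C1 intervals did not overlap, while those of the other pairs of libraries did. Summed over the 3 genes, limma gave a log2 fold change of -2.14 (adjusted p = 8.31e-05) for sample against untransfected cells and -2.48 (adjusted p = 9.69e-06) for mock against untransfected cells, values that do not depend on how the counted reads were shared out among them.

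AKR1B1, aldose reductase, which turns glucose into sorbitol, differed little between groups (chr7:134442355-134459136, minus strand). Its normalized read counts were 3491 and 3520.5 in sample cells, 3333 and 3586 in mock cells and 3591 and 3862 in untransfected cells. The transfected values ended just under the untransfected ones. The log2 fold change in the authors' deposited table was -0.09 for both comparisons, with an SE of 0.11 and a DESeq2 adjusted p of 0.568 for sample against untransfected cells and an SE of 0.08 and an adjusted p of 0.365 for mock against untransfected cells. Per kilobase of exon its mean level was 2488 in sample cells, 2455 in mock cells and 2645 in untransfected cells, which placed it far above AKR1C3 at 24.7, 21.9 and 130, and above AKR1C1 at 3.49, 3.56 and 12.1.

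On the same scale, normalized reads per kilobase of exon, the order of means in sample cells was TXNRD1, SRXN1, AKR1B1, NQO1, HMOX1 at 967, GCLM at 610, GCLC at 495, AKR1C3 and AKR1C1. In untransfected cells AKR1B1 and NQO1, at 2645 and 2278, stood above SRXN1 at 1428, and HMOX1 at 477 was next to GCLC at 468. GCLM held the last place before the AKR1C genes there, at 327.

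Sample cells against mock cells asked whether the light-controlled activator plasmids moved these genes beyond a transfection with TetR-RFP and YFP. None of the 9 tested genes was called in the authors' deposited table (DESeq2, adjusted p = 1.00 for each), where 0.0654% of all genes tested were called, and limma called none of 9 either, where it called 0.00% of all genes. At an unadjusted p under 0.05 the count was 0 of 9 with both, where 297 of 15287 genes (1.94%) were under it in the authors' deposited table. Deposited fold changes of this comparison are drawn strongly toward 0, so limma differences, sample minus mock, are given with their 95% intervals. They were -0.11 (-0.28 to 0.05) for TXNRD1, -0.11 (-0.29 to 0.07) for SRXN1, -0.03 (-0.28 to 0.23) for HMOX1, 0.01 (-0.15 to 0.17) for GCLM and -0.04 (-0.27 to 0.19) for GCLC on the log2 scale. NQO1 stood at 0.03 (-0.14 to 0.21) and AKR1B1 at 0.02 (-0.16 to 0.20). The intervals were wide for AKR1C3, at 0.40 (-0.31 to 1.11), and for AKR1C1, at 0.10 (-0.98 to 1.18), where the depth of the second sample library left 8 and 2 reads. Both TXNRD1 values of sample cells lay below both mock values, and both GCLM values of sample cells just above both mock values, without passing the test. For GCLM the nearest values were 2950.2 in sample cells and 2949 in mock cells. With 2 libraries per group such separation is easily reached. Its share over all genes is not given, so no result is drawn from it.

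**Figure D3:**
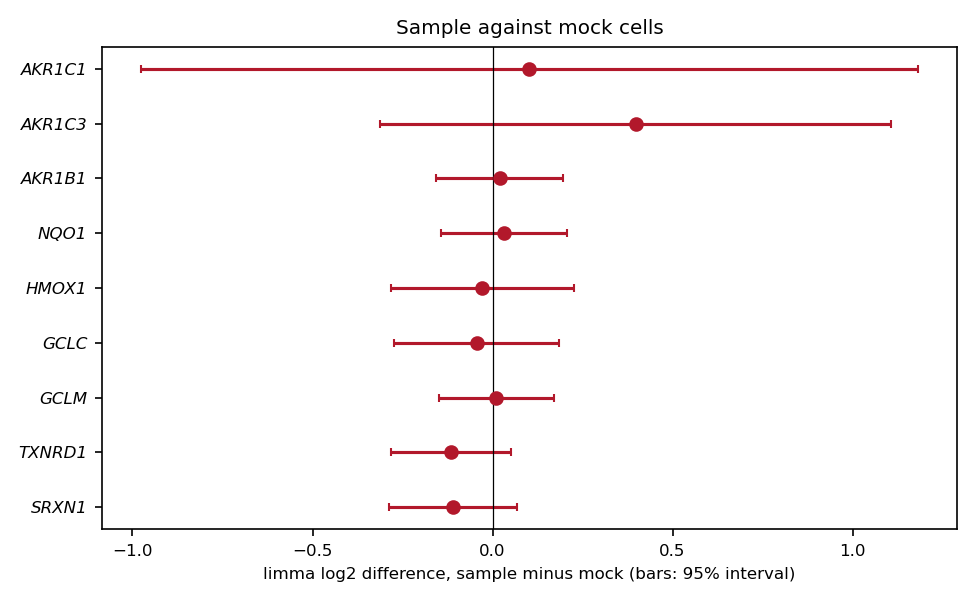
Limma log2 difference, sample minus mock cells (x axis, bars are 95% intervals), for 9 genes (y axis), AKR1C2 being left out for its few reads. All 9 intervals include 0, and those of AKR1C1 and AKR1C3 are the widest.

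The regulators of the pathway were taken from a list of 11 genes, part of 8 lists with 89 genes that exclude the 10 described above. Of these, 8 rose and 1 fell in sample against untransfected cells, and 8 rose and 1 fell in mock against untransfected cells, by the authors' deposited table, where 20.2% and 27.5% of all genes were called higher. With limma scaled by total reads, 6 rose and 1 fell in sample cells and 7 rose and 1 fell in mock cells. That fit called 48.9% and 57.3% of all genes, both directions together. The median log2 fold change was 0.35 in sample cells and 0.43 in mock cells, against -0.003 and -0.004 over all genes, in the authors' deposited table. MAFF, a small MAF partner of NRF2 that lacks an activation domain, had 3470 and 2973 normalized reads in sample cells, 3637 and 4052 in mock cells and 374 and 383 in untransfected cells. It was the largest change on any of the lists, with a log2 fold change of 3.04 (SE 0.14, DESeq2 adjusted p = 4.97e-104) for sample cells and 3.33 (SE 0.10, adjusted p = 2.85e-260) for mock cells over untransfected cells in the authors' deposited table. The other small MAF genes rose less in the authors' deposited table, MAFG by 0.55 in sample cells and 0.51 in mock cells and MAFK by 0.64 and 0.88 (log2).

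NFE2L2, the gene of NRF2 itself, had 1641 and 1845 normalized reads in sample cells, 1658 and 1688 in mock cells and 1377 and 1398 in untransfected cells. Its log2 fold change in the authors' deposited table was 0.31 (SE 0.13, DESeq2 adjusted p = 0.0426) for sample cells and 0.29 (SE 0.09, adjusted p = 0.00305) for mock cells over untransfected cells, both called, but with limma scaled by total reads neither was (adjusted p = 0.181 and 0.264). NRF2 is governed mainly at the protein level, which was not measured. KEAP1, its inhibitor, was not called, with log2 values of 0.04 (adjusted p = 0.821) in sample cells and 0.06 (adjusted p = 0.596) in mock cells in the authors' deposited table, and both turned negative with total-read scaling. The repressor BACH1 rose by 0.41 in sample cells and 0.50 in mock cells on the log2 scale in the authors' deposited table. BACH2, its lymphoid relative, had 145 and 90.6 normalized reads in sample cells, 97.9 and 92.7 in mock cells and 311 and 356 in untransfected cells. BACH2 had a log2 fold change of -1.31 in sample cells (DESeq2 adjusted p = 1.67e-05) and -1.73 in mock cells (adjusted p = 1.01e-17) in the authors' deposited table.

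Among 23 further glutathione genes, 6 rose and 6 fell of 20 tested in sample against untransfected cells, and 7 rose and 7 fell of 21 tested in mock against untransfected cells, in the authors' deposited table, where 37.3% and 50.9% of all genes were called. With limma scaled by total reads, 6 of 20 tested were higher and 8 lower in sample cells. In mock cells 6 were higher and 10 lower. Over all genes that fit called 48.9% and 57.3%. Glutaredoxin GLRX, which removes glutathione from protein thiols, had 1598 and 1981 normalized reads in sample cells, 1775 and 2095 in mock cells and 681 and 689 in untransfected cells. Its log2 fold change in the authors' deposited table was 1.34 in sample cells and 1.50 in mock cells. The transporter ABCC4 rose by 0.81 in sample cells and 0.90 in mock cells in the authors' deposited table. ABCC2, an exporter of glutathione conjugates, was not called in sample cells (0.97, DESeq2 adjusted p = 0.0669) and was called in mock cells (1.48, adjusted p = 0.00011) by the authors' deposited table. The glutathione transferases GSTA4 and GSTM4 fell, with log2 values of -0.81 and -0.61 in sample cells and -0.78 and -1.09 in mock cells in the authors' deposited table. Both belong to gene families with close copies, which can share reads.

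The thioredoxin list, without TXNRD1 and SRXN1, had 4 of 11 genes higher and 1 lower in sample against untransfected cells and 6 higher and 2 lower in mock against untransfected cells, in the authors' deposited table, where 37.3% and 50.9% of all genes were called. Scaled by total reads, limma had 4 higher and 2 lower in sample cells and 3 higher and 2 lower in mock cells. It called 48.9% and 57.3% of all genes there. Thioredoxin itself, TXN, the substrate of TXNRD1, had 3759 and 2981 normalized reads in sample cells, 3872 and 3984 in mock cells and 2332 and 2319 in untransfected cells. The authors' deposited table put its log2 fold change at 0.53 in sample cells (DESeq2 adjusted p = 0.000582) and 0.77 in mock cells (adjusted p = 1.52e-23). The mitochondrial reductase TXNRD2 rose by 0.35 in sample cells and 0.46 in mock cells, and SESN2, a stress-induced sestrin, by 0.65 and 0.37 (log2), in the authors' deposited table. The peroxiredoxin PRDX5 fell, with log2 values of -0.62 in sample cells and -0.65 in mock cells in the authors' deposited table.

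Of the other aldo-keto reductases, 2 fell of 4 tested in sample cells and 2 of 7 tested in mock cells against untransfected cells, in the authors' deposited table. Over all genes tested, 17.1% and 23.3% were called lower. Limma scaled by total reads had 0 higher and 2 lower of 4 tested in both comparisons. The genes that fell were AKR1A1 and AKR7A2 in both, with log2 values of -0.41 and -0.34 in sample cells and -0.36 and -0.44 in mock cells in the authors' deposited table. These abundant relatives, at 1676 to 2469 normalized reads for AKR1A1 in any library, changed by much less than AKR1C3. Among quinone and carbonyl genes 1 of 9 tested rose in sample cells, and 2 rose and 4 fell of 10 tested in mock cells, in the authors' deposited table, where 37.3% and 50.9% of all genes were called. Of 9 tested with limma scaled by total reads, 1 rose and 5 fell in sample cells and 1 rose and 6 fell in mock cells. For this list and the aldo-keto reductases, that fit's background was 48.9% and 57.3% of all genes called. OSGIN1, an NRF2-responsive growth inhibitor, had 861 and 1231 normalized reads in sample cells, 953 and 964 in mock cells and 431 and 473 in untransfected cells, and its log2 value was 1.14 in sample cells and 1.09 in mock cells in the authors' deposited table. EPHX1 and PTGR1, which open epoxides and reduce prostaglandin ketones, fell in mock cells, with log2 values of -0.69 and -0.31 in the authors' deposited table, and were not called in sample cells (-0.14 and -0.18).

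Heme and iron genes moved in both directions. By the authors' deposited table, of 10 genes, 2 rose and 4 fell in sample against untransfected cells, and 2 rose and 6 fell in mock against untransfected cells, where 37.3% and 50.9% of all genes were called. Limma scaled by total reads had 2 higher and 6 lower in both, where it called 48.9% and 57.3% of all genes. HMOX2, the constitutive heme oxygenase, had 4017 and 4089 normalized reads in sample cells, 4125 and 4697 in mock cells and 1602 and 1597 in untransfected cells. Its log2 value was 1.32 in sample cells (DESeq2 adjusted p = 9.56e-33) and 1.47 in mock cells (adjusted p = 1.60e-63) by the authors' deposited table. The values of HMOX2 were thus larger than those of HMOX1 in each comparison, 1.32 against 0.98 in sample cells and 1.47 against 0.97 in mock cells, a difference that was not tested. The transferrin receptor TFRC, which takes up iron, rose by 1.01 in sample cells and 1.47 in mock cells in the authors' deposited table. Ferroportin SLC40A1, which exports iron and is a known NRF2 target, had 573 and 556 normalized reads in sample cells, 464 and 494 in mock cells and 1423 and 1408 in untransfected cells. SLC40A1 had a log2 value of -1.29 in sample cells and -1.53 in mock cells in the authors' deposited table, both called.

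NADPH feeds TXNRD1, NQO1 and the aldo-keto reductases. Of 7 genes of NADPH supply, the authors' deposited table called 1 in sample against untransfected cells, which fell, while 2 rose and 4 fell in mock against untransfected cells, where 37.3% and 50.9% of all genes were called. Limma on the recovered counts had 2 higher and 2 lower in sample cells and 2 higher and 3 lower in mock cells. Scaled by total reads it had 0 higher and 5 lower in both, where it called 48.9% and 57.3% of all genes. IDH1, the cytosolic isocitrate dehydrogenase, had 1734 and 1552 normalized reads in sample cells, 1603 and 1512 in mock cells and 4865 and 5000.3 in untransfected cells. IDH1 had a log2 value of -1.55 in sample cells (DESeq2 adjusted p = 2.15e-38) and -1.64 in mock cells (adjusted p = 6.62e-97) in the authors' deposited table. ME1, a malic enzyme and also an NRF2 target, fell in mock cells, with a log2 value of -0.42 in the authors' deposited table, and was not called in sample cells (-0.27). Of 3 general antioxidant genes tested, SOD2 rose by 0.37 in sample cells and 0.45 in mock cells, and catalase, CAT, fell, with -0.67 and -0.80, in the authors' deposited table.

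Over all 89 genes, 22 rose and 16 fell of 75 tested in sample against untransfected cells, and 28 rose and 27 fell of 80 tested in mock against untransfected cells, in the authors' deposited table, where 37.3% and 50.9% of all genes were called. Limma scaled by size factors had 26 higher and 21 lower in sample cells and 28 higher and 25 lower in mock cells, of 75 tested each. With limma scaled by total reads these splits were 20 higher and 31 lower, and 20 higher and 34 lower, of 75 tested each. That change of scaling moved the limma median over all genes from 0.01 to -0.13 in sample cells and from 0.01 to -0.15 in mock cells. Under it 48.9% and 57.3% of all genes were called, and shares by direction are not given. More lower calls under that scaling are therefore not read as a trait of these lists. For the listed genes the median log2 fold change in the authors' deposited table was 0.04 in sample cells and -0.09 in mock cells over untransfected cells. In sample against mock cells 0 of 75 passed in the authors' deposited table (DESeq2, 1 at an unadjusted p under 0.05) and 0 of 75 by limma (6 at an unadjusted p under 0.05).

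**Figure D4:**
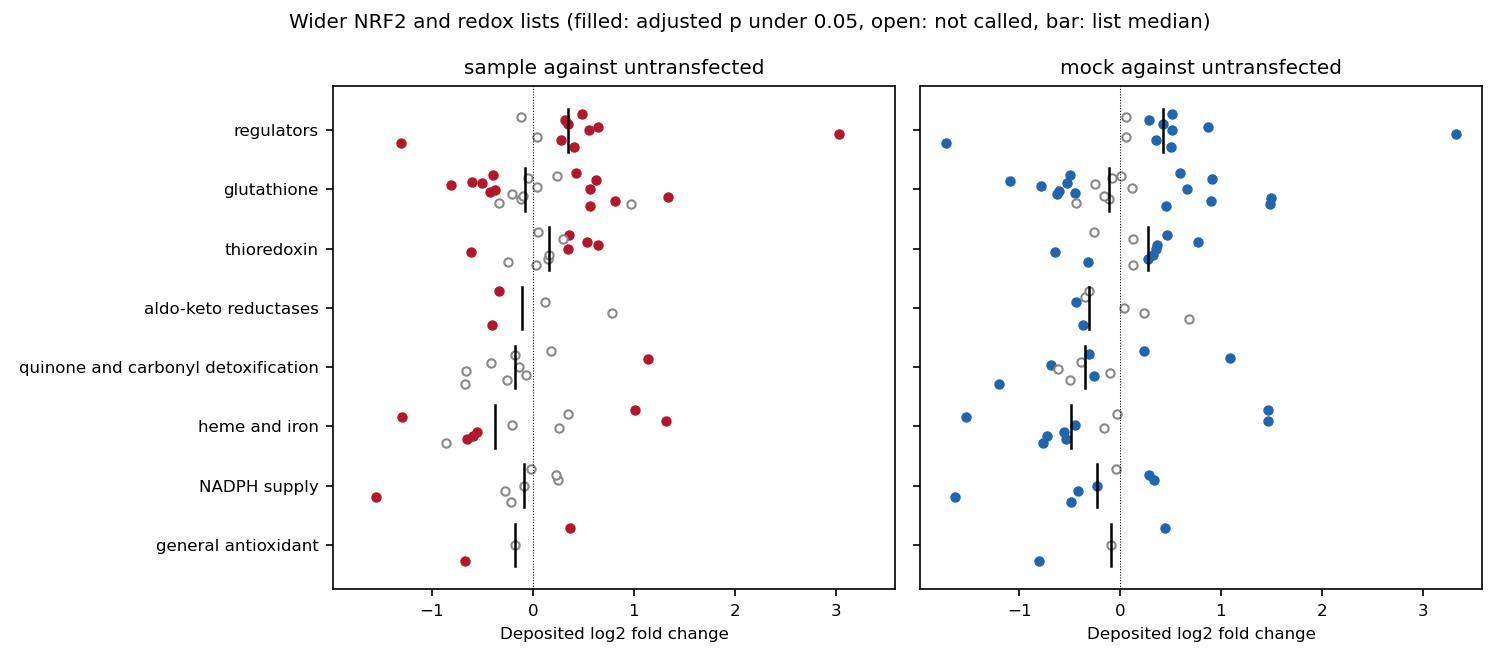
Log2 fold change from the authors' deposited tables (x axis) of each tested gene on 8 lists (y axis), in sample cells (left) and mock cells (right) against untransfected cells, filled where the adjusted p was under 0.05, with bars at the list medians. The regulators lie mostly above 0, with MAFF at 3.04 and 3.33, and the other lists hold genes on both sides.

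The genes most like 3 of the described genes were found from log2(normalized count + 1) over the 6 libraries, centred on each gene's mean, over 11490 genes averaging at least 100 normalized reads (the gene itself left out). The measure was the root mean square difference of the centred profiles, and the libraries share the same groups and depths. For AKR1C1 they were ALPK1 (0.105), ADAM22 (0.115) and SYNE2 (0.126). AKR1C1 itself averaged under 100 normalized reads. Its profile rests on 13 and 2 reads in sample cells, 16 and 8 in mock cells and 42 and 51 in untransfected cells. For NQO1 the nearest genes were LMNA (0.0128), ENSA (0.0206) and RAB34 (0.0208), all abundant, with lower means in both transfected groups than in untransfected cells. For HMOX1 they were GEMIN4 (0.0263), SPRED2 (0.0328) and TCOF1 (0.0380). GEMIN4, for instance, had 1354 and 1746 normalized reads in sample cells, 1434 and 1562 in mock cells and 778 and 787 in untransfected cells.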

How the data were processed

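RNA from 6 libraries of U2OS 2-6-3 cells was purified and turned into directional libraries with commercial kits, per the labels' protocols. The submitters' processing notes name Bowtie, STAR, DESeq2 and hg38. Their versions, and how reads were counted, are not stated there. The authors deposited 3 comparison tables, 1 per pair of groups, each from a fit to the 4 libraries of that pair. Each of the 40029 transcript entries has, per the file headers, a mean signal (baseMean, read counts divided by size factors). It also has a log2 fold change with its SE, a Wald score, a p-value and an adjusted p-value, per the file headers. The deposited log2 fold changes are shrunk toward 0. Whole counts of each library were solved from the 3 deposited mean signals for 30527 of 30527 entries with reads (relative tolerance 1e-14), and 29889 of 29889 simulated entries were recovered. Normalized counts are these counts divided by the size factors. Totals summed over transcript entries ran from 9579278 to 54177551 reads. Overlapping entries of a gene can hold the same reads, so these sums can count a read more than once. Scaling by total reads used these sums. Exact intervals of ratios and shares cover counting error only, whereas limma intervals reflect the spread between libraries.

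Symbols were found for 39745 entries (99.3%) through RefSeq and GENCODE annotation. Calls are the authors' DESeq2 results at an adjusted p under 0.05. As an alternative, limma-voom (limma 3.58.1, R 4.3.3), tested on simulated data, was run on all 6 libraries for genes averaging at least 10 normalized reads, with Benjamini-Hochberg adjustment over all genes. Named genes are the 10 genes, up to 3 called genes per list and comparison with the largest change and a mean of at least 50, NFE2L2, KEAP1, BACH1 and the small MAF genes, and the nearest profiles of AKR1C1, NQO1 and HMOX1. A gene that meets this rule is not reported here. The genes, lists and tests were chosen with earlier results of these data known. Alternatives changed the threshold, centring, scaling, filter, entries of a gene and the libraries kept. Computations used biopython 1.88, scipy 1.17.1, pandas 2.3.3, numpy 2.4.6 and matplotlib 3.10.9 under Python 3.11.15.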

Additional observations from a re-analysis of the deposited data

How the results depend on the processing

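No paired analysis was possible because the deposited columns carry no replicate numbers. No value for these 10 genes changed sign while called. With limma scaled by total reads, the count of genes called in sample against untransfected cells was 8. It was 5 in the authors' deposited table and 6 with limma scaled by size factors. Total-read scaling moved the median log2 fold change of all genes from 0.01 to -0.13 in that comparison and to -0.15 in mock against untransfected cells. Relative to the authors' deposited table, the lower calls gained were AKR1B1 (-0.23 in sample cells, -0.27 in mock cells) and, in sample cells, NQO1 (-0.33) and AKR1C1 (-1.74). The AKR1C1 call did not need total-read scaling, since limma scaled by size factors also made it (log2 -1.59, adjusted p = 0.00996). Leaving out 1 library leaves a single library in its group, so no count of called genes is given for those fits. In them the limma log2 fold change of AKR1C3 ran from -2.74 to -2.05 in sample against untransfected cells. In mock against untransfected cells it ran from -2.83 to -2.32. For TXNRD1 it ran from 1.11 to 1.28 and from 1.30 to 1.31. The tallies that follow include these fits, and the matching tallies over all genes are not given. Over the 10 genes and the settings tried, in sample against untransfected cells, 60 values kept a call, 37 stayed uncalled, 11 gained a call and 0 lost one. In mock against untransfected cells 80 kept a call, 21 stayed uncalled, 5 gained a call and 3 lost one (all 3 for NQO1), and in sample against mock cells all 108 stayed uncalled. Depth limited AKR1C1 and AKR1C2 in sample library b, with 2 and 0 reads. Total-read scaling of the wider lists was chosen after seeing the data. DESeq2 and edgeR were not run on the recovered counts.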
